A study of Mus musculus with 4 samples.

Results

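The anaphase-promoting complex, or cyclosome (APC/C), is the ubiquitin ligase that the spindle checkpoint holds back, and 10 genes of this machinery are described here in testes of mice at postnatal day 10 (P10). They were chosen by name from the deposited table of 55820 loci, and each name matched 1 row. The genes are the activators *Cdc20* and *Fzr1*, the inhibitors *Fbxo5* and *Fbxo43*, securin (*Pttg1*) and separase (*Espl1*), and the core subunits *Anapc2*, *Anapc11*, *Cdc27* and *Cdc16*. RNA was sequenced from whole testes of C57BL/6J males, with 2 libraries from control mice and 2 from Mps1sKO mice, in which *Stra8*-Cre removes *Mps1* (*Ttk*) in germ cells from early spermatogonia onwards. The labels call the controls only "control" and do not give their alleles, and whether a library came from 1 mouse or from pooled mice is not stated in the sources used here. Somatic cells of the testis, such as Sertoli and Leydig cells, do not carry the deletion but contribute to every library. In whole testes, fewer cells of a type and less RNA per cell cannot be told apart.

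The APC/C attaches ubiquitin to proteins that must disappear for a cell to leave mitosis or a meiotic division. Its catalytic core is a cullin-like subunit (ANAPC2) with a RING subunit (ANAPC11), and a scaffold of repeat-containing subunits, among them CDC27 and CDC16, docks the activators. CDC20 switches the complex on at the transition from metaphase to anaphase, and CDH1, the product of *Fzr1*, keeps it active in late mitosis and G1. MPS1, the kinase deleted in these mice, starts the checkpoint signal that captures CDC20 until chromosomes are attached to the spindle. Once CDC20 is free, the APC/C destroys securin, which releases separase to cut cohesin, and cyclin B, whose loss ends the division. EMI1 (*Fbxo5*) blocks the APC/C in S and G2 phase, and its relative EMI2 (*Fbxo43*) does so in meiosis.

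Library totals lay between 23311689 and 28607746 counts, and 20561 loci passed the filter on low counts, all 10 genes among them. *Ttk* was at 27.9 and 32.6 CPM, the normalized counts scaled to library size, in the control libraries and at 13.0 and 12.2 CPM in the Mps1sKO libraries. The log2 fold change of *Ttk* was −1.26 (adjusted p = 0.0461, edgeR), and its adjusted p was above 0.05 under 5 alternatives. DESeq2 gave *Ttk* an adjusted p of 7.3e-09. The log2 fold change of *Ttk* lay between −1.37 and −1.15 under all alternatives. All fold changes are Mps1sKO relative to control, from edgeR's two-sided quasi-likelihood test with Benjamini-Hochberg adjustment over all tested loci. Each edgeR p-value weighs the genotype difference against a spread between the 2 libraries of each group. That spread is estimated for each locus with 2 degrees of freedom, and with 5.64 more borrowed from all tested loci.

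At an adjusted p of 0.05 (edgeR), 0 of the 10 genes were called, and 0.0292% of all tested loci were called lower and 0.0% higher. Of the 10, 0 also passed an edgeR threshold of 1.5-fold with unadjusted p under 0.01, against 0.681% of loci lower and 0.146% higher. DESeq2 and limma-voom also gave 0 calls. In simulated counts with 2 libraries per group, edgeR called 16.9% of loci with a true log2 size of 0.5. A count of 0 therefore does not show that the 10 genes were unchanged. The gene with the largest difference was *Cdc20*, at 75.2% of its control level, and it was the only gene of the 10 with an unadjusted p below 0.05, a threshold that 5.37% of loci passed in the lower direction and 3.92% in the higher. For 4 genes, *Cdc20*, *Fbxo5*, *Pttg1* and *Anapc2*, both Mps1sKO libraries lay below both control libraries, which held for 21.1% of all loci. Of the 10, 7 had a lower and 3 a higher mean in Mps1sKO testes, where 49.9% and 50.1% of loci did. *Cdc16* alone lay above in both libraries, as did 20.3% of all loci. The groups of the other 5 genes overlapped. The median log2 fold change of the 10 genes was −0.11, against 0.00027 over all tested loci. By role, the median was −0.20 for the activators, −0.075 for the inhibitors, −0.13 for securin and separase and −0.022 for the 4 core subunits. The first 3 roles have 2 genes each, so their median is the midpoint of 2 values. For the activators these are −0.41 for *Cdc20* and 0.0046 for *Fzr1*. Single libraries moved these role medians: the activators lay between −0.33 without Mps1sKO replicate 2 and −0.091 without Mps1sKO replicate 1. The inhibitors ran from −0.15 without control replicate 1 to 0.013 without control replicate 2, a change of sign. Securin and separase ran from −0.21 without Mps1sKO replicate 1 to −0.059 without Mps1sKO replicate 2, and the core subunits from −0.044 without control replicate 2 to −0.0019 without control replicate 1.

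**Figure D1:**
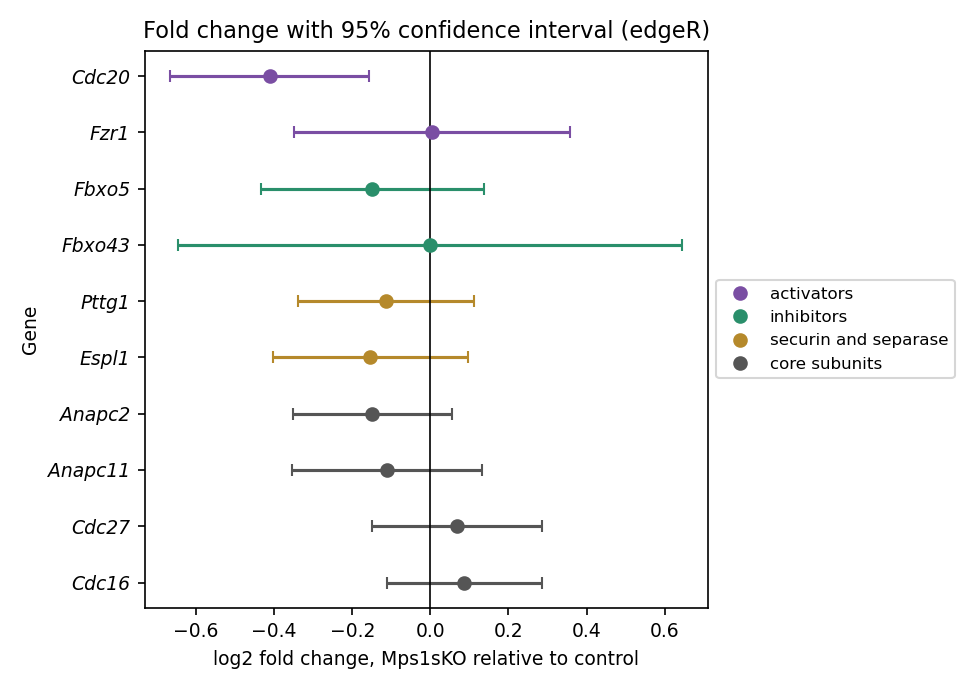
The log2 fold change of each gene (x axis, Mps1sKO relative to control) is drawn with its 95% confidence interval from edgeR, and colours mark the role. The interval of *Cdc20*, from −0.67 to −0.16, lies below 0, and the intervals of the other 9 genes include 0.

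*Cdc20* lies on chromosome 4 from 118432901 to 118437352 on the minus strand of GRCm38. Its promoter is shown beside those of *Espl1*, *Cdc27* and *Cdc16*. Promoters were examined because genes of G2 and mitosis often carry a cell cycle genes homology region (CHR) near a CCAAT box. These letters were searched in the 250 bases before each RefSeq start. The CHR was taken as TTTGAA or TTCGAA and the box as CCAAT, each on both strands, and the 2 motifs share no bases where they are found here. The last 120 bases before the start are printed 5′ to 3′ on the strand of the gene (GRCm38.p6, RefSeq), with the matches in capitals.
Cdc20 (chr4:118437344-118437463, minus strand): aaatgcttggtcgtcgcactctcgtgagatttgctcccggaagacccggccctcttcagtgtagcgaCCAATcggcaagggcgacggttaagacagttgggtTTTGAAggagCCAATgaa
Espl1 (chr15:102296173-102296292, plus strand): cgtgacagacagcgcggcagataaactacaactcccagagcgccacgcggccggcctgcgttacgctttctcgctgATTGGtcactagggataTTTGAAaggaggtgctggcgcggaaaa
Cdc27 (chr11:104550621-104550740, minus strand): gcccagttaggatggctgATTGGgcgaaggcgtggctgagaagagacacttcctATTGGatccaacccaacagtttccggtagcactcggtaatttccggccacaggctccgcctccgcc
Cdc16 (chr8:13757536-13757655, plus strand): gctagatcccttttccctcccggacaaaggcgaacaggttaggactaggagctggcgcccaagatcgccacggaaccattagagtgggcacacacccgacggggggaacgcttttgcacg
The *Cdc20* window holds TTTGAA at position −18 and CCAAT at −53 and −8, counted from −1 at the base before the start to the first base of the match. The RefSeq starts of *Cdc20* and *Espl1* lie shortly downstream of the GENCODE starts, so the last bases of these 2 windows are transcribed in the GENCODE models. In the *Espl1* window TTTGAA stands at −27, downstream of a reversed box at −44. *Cdc27* has reversed boxes at −102 and −66 and no CHR, and *Cdc16* has neither motif in the window. Of the 9 genes with a RefSeq window, *Fzr1* and *Fbxo5* also hold a box without a CHR, *Anapc11* holds a box in 1 of its 2 windows, and *Pttg1* and *Anapc2* hold neither. The windows of *Fzr1*, *Fbxo5* and *Pttg1* and that window of *Anapc11* also reach into the GENCODE gene, for *Pttg1* with all 250 bases. The boxes of *Fzr1*, *Fbxo5* and *Anapc11* lie inside the gene, as do the *Cdc20* box at −8 and the *Espl1* TTTGAA. Both motifs occur together in 6.02% of all 32851 windows, a CHR in 17.1% and a CCAAT box in 33.8%. *Fbxo5*, *Pttg1*, *Anapc2* and *Anapc11*, not printed and without a CHR, had lower means in Mps1sKO testes, as did *Cdc20* and *Espl1*. *Fzr1*, also not printed, had a log2 fold change of 0.0046. A link between motif and direction was not tested.

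Levels were compared between genes in FPKM, which divides by gene length. In control testes *Cdc20* was the highest of the 10 at 42.8 ± 2.82 FPKM (SD, n = 2), followed by *Anapc2* at 39.9 ± 1.198 and *Cdc16* at 32.0 ± 0.560, and the control libraries of these neighbours did not overlap. *Cdc27* at 18.3 ± 0.494 and *Pttg1* at 17.8 ± 0.348 overlapped, as did *Fzr1* at 14.04 ± 2.84 and *Fbxo5* at 13.9 ± 0.0647. *Anapc11* followed at 11.8 ± 0.139 and *Espl1* at 9.70 ± 0.360. The lowest was the meiotic inhibitor *Fbxo43* at 0.391 ± 0.0628 FPKM. In the Mps1sKO libraries the order differed only in the first 3 places, where *Cdc20*, at 32.3 ± 3.65 FPKM, came behind both *Anapc2* at 36.2 ± 1.502 and *Cdc16* at 34.1 ± 0.863.

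**Figure D2:**
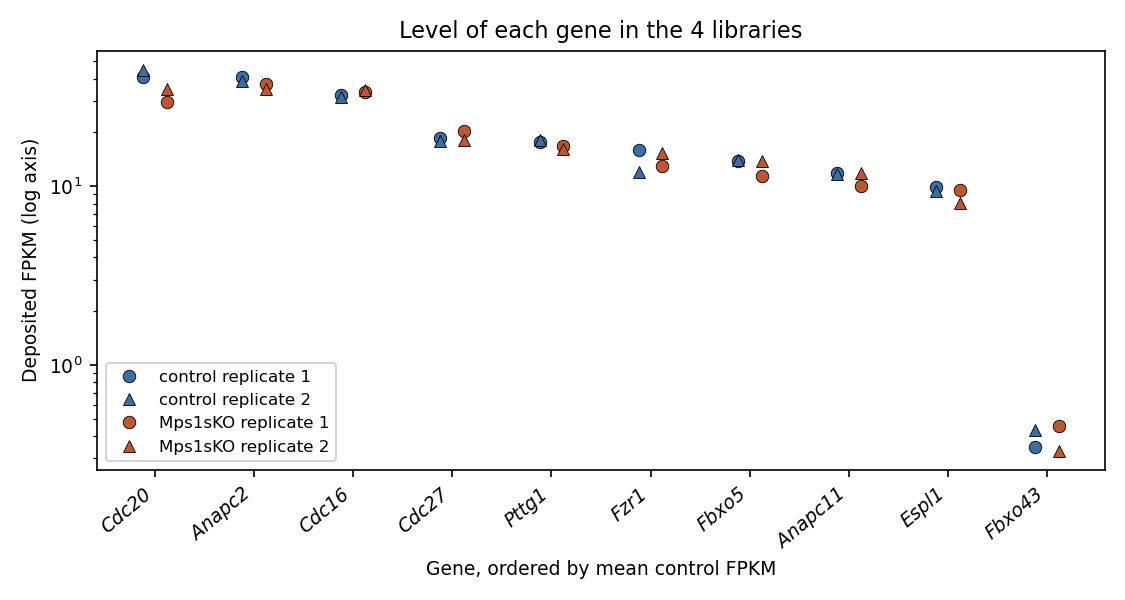
Deposited FPKM (y axis, log scale) of the 10 genes is plotted for each of the 4 libraries, ordered by the control mean. Of the 10 genes 9 lie between 8.04 and 44.8 FPKM, and *Fbxo43* lies between 0.332 and 0.458.

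The order depends on the length that is used. The deposited values divide by the union of all annotated exons, which is 2000 bases for *Pttg1* and 5057 for *Anapc11*, while their principal transcripts have 948 and 3229 bases. Per kilobase of the principal transcript, *Pttg1* was at 37.6 and 38.7 CPM in the control libraries, without the normalization factors, above *Cdc27* at 21.7 and 21.0. *Cdc20*, at 43.1 and 47.4, and *Anapc2*, at 47.3 and 45.4, then overlapped.

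The activators differed in how their libraries fell. *Cdc20*, the mitotic activator and the checkpoint's target, had 77.0 and 84.3 CPM in controls against 55.8 and 65.3 CPM in Mps1sKO testes. Every Mps1sKO library lay below every control library, and the difference between genotypes exceeded the difference within either group. The log2 fold change of *Cdc20* was −0.41 (SE = 0.109, adjusted p = 0.494, edgeR), where SE is the standard error, with a 95% confidence interval from 63.0% to 89.7% of control. Its unadjusted p was 0.00598 with edgeR and 0.00330 with DESeq2. Dropping 1 library at a time gave log2 fold changes from −0.53 to −0.30. Without the filter on low counts the adjusted p of *Cdc20* was 0.0267 (edgeR), where 251 of 35262 loci were called lower and 139 higher. Over the alternatives that kept all 4 libraries its adjusted p ranged from 0.0267 to 0.915 (edgeR, replicate number as a block).

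*Fzr1*, which encodes the late-mitotic and G1 activator CDH1, lies on chromosome 10 from 81366222 to 81378516. It had 72.7 and 54.3 CPM in controls against 58.3 and 69.0 CPM in Mps1sKO testes. Both Mps1sKO values fell between the control values, and the control libraries differed by 0.42 on the log2 scale. For *Fzr1* this was a log2 fold change of 0.0046 (SE = 0.152, adjusted p = 0.996, edgeR), and the 95% interval ran from 78.6% to 128% of control. Its direction changed with the library left out, from −0.19 without control replicate 2 to 0.23 without control replicate 1.

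**Figure D3:**
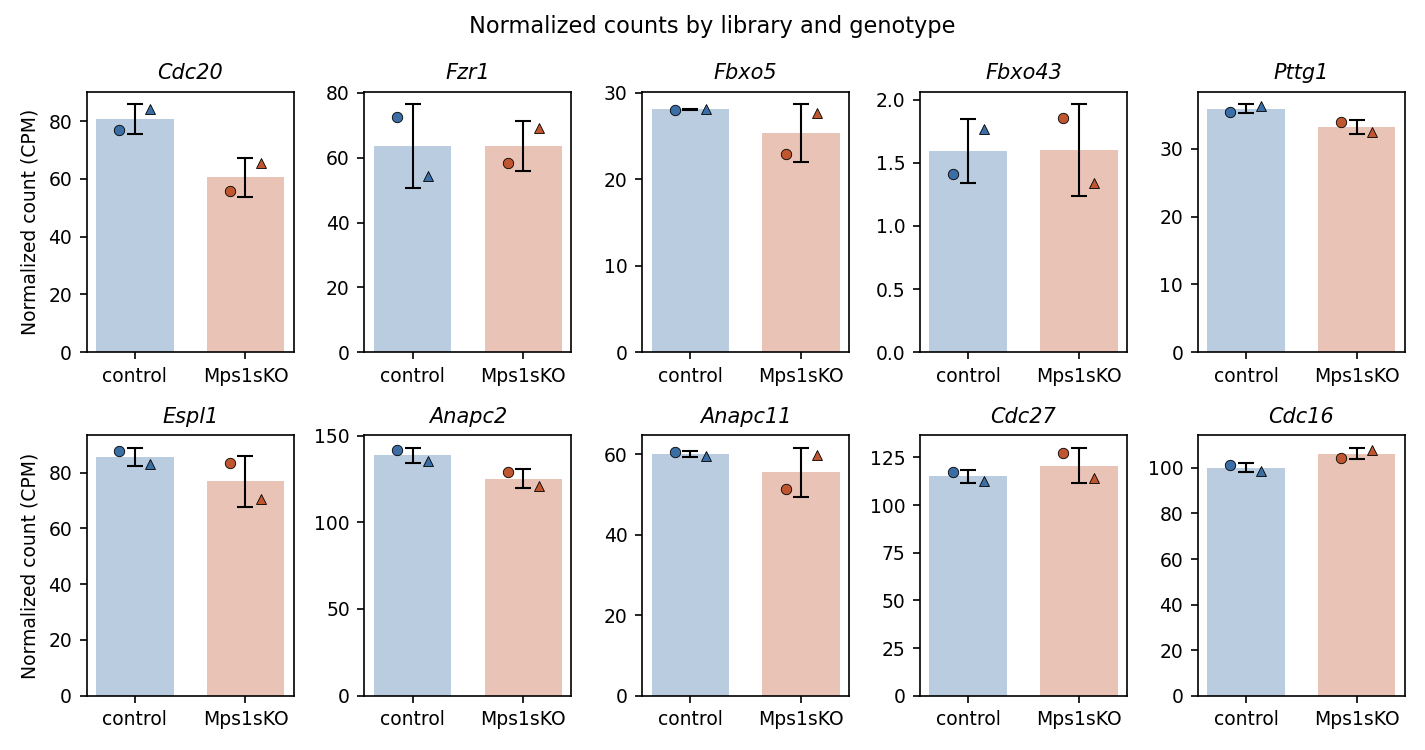
Normalized counts (y axis, CPM, starting at 0) are shown for each gene, with bars for the mean, error bars for the SD over 2 libraries, circles for replicate 1 and triangles for replicate 2. The *Cdc20* libraries separate by genotype, from 55.8 to 65.3 CPM against 77.0 to 84.3 CPM, while those of *Fzr1* and *Fbxo43* are mixed.

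The inhibitors are F-box proteins that block the APC/C at different times. *Fbxo5* (EMI1), on chromosome 10 from 5799160 to 5805600, had 28.0 and 28.1 CPM in controls against 22.9 and 27.7 CPM in Mps1sKO testes. The Mps1sKO libraries were both below the controls, but the Mps1sKO libraries differed from each other by 0.27 on the log2 scale, more than the genotypes did. On the log2 scale the fold change of *Fbxo5* was −0.15 (SE = 0.123, adjusted p = 0.724, edgeR), and it was −0.021 without Mps1sKO replicate 1 and −0.29 without Mps1sKO replicate 2.

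*Fbxo43* (EMI2), the meiotic relative, lies on chromosome 15 from 36150060 to 36164884 and was scarcely detected. It had 38 and 51 counts in controls against 43 and 36 in Mps1sKO testes, and the groups overlapped. At this depth the 95% interval of *Fbxo43* ran from 63.9% to 156% of control, the widest of the 10, so a difference within these bounds was not excluded.

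Securin and separase form the lock that the APC/C opens at anaphase. *Pttg1* (securin), on chromosome 11 from 43420250 to 43426251, had 35.5 and 36.4 CPM in controls against 33.9 and 32.5 CPM in Mps1sKO testes. The groups did not overlap, and the difference between them exceeded the differences within them of 0.036 and 0.063 on the log2 scale. *Pttg1* thus had a log2 fold change of −0.11 (SE = 0.0969, adjusted p = 0.734, edgeR), and the 95% interval ran from 79.0% to 108% of control. A genotype difference above both within-group differences was seen in 4 of the 10 genes. These were *Cdc20*, *Pttg1*, *Anapc2* and, in the higher direction, *Cdc16*. The share of all loci with this trait was not counted. *Espl1* (separase), the protease that cuts cohesin, lies on chromosome 15 from 102296266 to 102324357. It had 87.9 and 83.2 CPM in controls against 83.4 and 70.5 CPM in Mps1sKO testes, so that Mps1sKO replicate 1 lay within the control range and replicate 2 below it. Its log2 fold change was −0.15 (SE = 0.107, adjusted p = 0.673, edgeR), −0.28 without Mps1sKO replicate 1 and −0.036 without Mps1sKO replicate 2.

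Among the core subunits, the catalytic pair had lower mean levels and the scaffold pair higher mean levels in Mps1sKO testes, between 90.2% and 106% of control. *Anapc2*, the cullin-like subunit, lies on chromosome 2 from 25272478 to 25285915. It had 142 and 135 CPM in controls against 129 and 121 CPM in Mps1sKO testes, with no overlap. The log2 fold change of *Anapc2* was −0.15 (SE = 0.0880, adjusted p = 0.623, edgeR), and dropping 1 library at a time gave −0.19 to −0.10. *Anapc11*, the RING subunit that binds the ubiquitin-carrying enzyme, lies on chromosome 11 from 120598421 to 120608198. It had 60.6 and 59.4 CPM in controls against 51.2 and 59.8 CPM in Mps1sKO testes, so that only Mps1sKO replicate 1 was low. For *Anapc11* the log2 fold change was −0.11 (adjusted p = 0.763, edgeR) and −0.0047 without that library.

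*Cdc27*, a scaffold subunit that receives the activators, lies on chromosome 11 from 104502745 to 104550620. It had 117 and 113 CPM in controls against 127 and 114 CPM in Mps1sKO testes, and the groups overlapped. *Cdc27* had a log2 fold change of 0.068 (adjusted p = 0.844, edgeR). *Cdc16*, another scaffold subunit, lies on chromosome 8 from 13757676 to 13781938. It had 101 and 98.8 CPM in controls against 105 and 108 CPM in Mps1sKO testes, and both Mps1sKO values were above both control values. For *Cdc16* the log2 fold change was 0.087 (adjusted p = 0.775, edgeR), and the 95% interval ran from 92.5% to 122% of control.

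The other 10 core subunits were read from the same fit. Of these, 3 had a lower and 7 a higher mean in Mps1sKO testes, and 0 passed an unadjusted p of 0.05 with edgeR, DESeq2 or limma-voom. Their median log2 fold change was 0.035, and it was −0.025 without control replicate 1, 0.022 without Mps1sKO replicate 1 and 0.060 without control replicate 2. The smallest unadjusted p belonged to *Anapc13*, a small subunit, with 52.8 and 58.0 CPM in controls against 37.5 and 53.5 CPM in Mps1sKO testes. As for *Anapc11*, its low value came from Mps1sKO replicate 1. *Anapc13* had a log2 fold change of −0.28 (adjusted p = 0.615, edgeR). Next was *Cdc26*, which binds CDC16, with a log2 fold change of 0.18 (adjusted p = 0.636, edgeR). Among the 4 ubiquitin-conjugating enzymes that serve the complex, *Ube2c* and *Ube2s*, which start and extend the ubiquitin chain, had log2 fold changes of −0.099 and −0.066 with overlapping groups. *Ube2d1* had the largest difference of the 4, 0.22 (adjusted p = 0.558, edgeR). The median of the 4 enzymes was −0.057, and it ran from −0.18 without Mps1sKO replicate 2 to 0.058 without Mps1sKO replicate 1.

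Genes that act upstream and downstream of the complex were counted in the same fit. Of 9 spindle checkpoint genes, 6 had an unadjusted p below 0.05 in the lower direction (5.37% of all loci), 0 in the higher direction, and their median log2 fold change was −0.31. This list includes *Ttk* itself, the only one of the 9 with an adjusted p below 0.05 in edgeR. *Mad2l1*, whose product binds CDC20 in the checkpoint complex, was at 59.6 and 65.5 CPM in controls against 50.5 and 50.6 CPM in Mps1sKO testes. *Mad2l1* had a log2 fold change of −0.31 (adjusted p = 0.494, edgeR), and *Bub1*, a checkpoint kinase, and *Trip13*, which takes the checkpoint complex apart, had −0.40 and −0.30 (adjusted p = 0.497 each, edgeR).

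Of 26 genes for proteins that the APC/C destroys, 25 were tested and all 25 had a lower mean in Mps1sKO testes, where 49.9% of all loci did. The groups did not overlap for 20 of them, against 21.1% of all loci. An unadjusted p below 0.05 was reached by 14 with edgeR (5.37% of all loci lower), 9 with DESeq2 and 13 with limma-voom. Of the 25, 0 passed the adjusted threshold with any of these. The median log2 fold change of the substrates was −0.28, and dropping 1 library at a time gave −0.35 to −0.19. *Ccnb1* (cyclin B1), the substrate whose loss ends mitosis, had 110 and 115 CPM in controls against 90.8 and 92.6 CPM in Mps1sKO testes. For *Ccnb1* the log2 fold change was −0.30 (adjusted p = 0.494, edgeR). *Gmnn* (geminin) and *Cdc6*, which act on replication licensing, had log2 fold changes of −0.47 and −0.50, and *Aurka*, a spindle kinase, had −0.38 (adjusted p = 0.494 each, edgeR). *Skp2* was listed with 0 counts in every library and was left out of the fit. A gene of dividing cells would usually be detected in testis, the reason for the 0 was not examined, and it is not read as absence of expression.

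Of the 10 cohesin and shugoshin genes, 4 had an unadjusted p below 0.05, all lower (5.37% of all loci). These were *Stag3*, *Smc1b* and *Rad21l*, which encode meiotic cohesin subunits, and *Sgo2a*, which encodes a protector of cohesin at centromeres. Their log2 fold changes were −0.61, −0.56, −0.53 and −0.29 (adjusted p from 0.494 to 0.527, edgeR), and DESeq2 gave *Stag3* an adjusted p below 0.05. *Rad21*, the subunit that separase cuts in mitosis, had a log2 fold change of 0.035 and *Rec8*, its meiotic form, −0.071. The median of the list was −0.11, and it was −0.28 without Mps1sKO replicate 1, −0.030 without Mps1sKO replicate 2, −0.20 without control replicate 1 and −0.075 without control replicate 2. Of 17 other genes of proliferating cells, such as *Melk*, *Kif11*, *Cenpa* and *Top2a*, 8 had an unadjusted p below 0.05, all lower (5.37% of all loci). Of the 17, 0 passed the adjusted threshold in edgeR, DESeq2 or limma-voom, and the median log2 fold change was −0.26. That median was −0.15 without control replicate 2 and −0.17 without Mps1sKO replicate 2. In the same fit *Cdc20* was at −0.41 and the 4 core subunits described above were between −0.15 and 0.087.

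**Figure D4:**
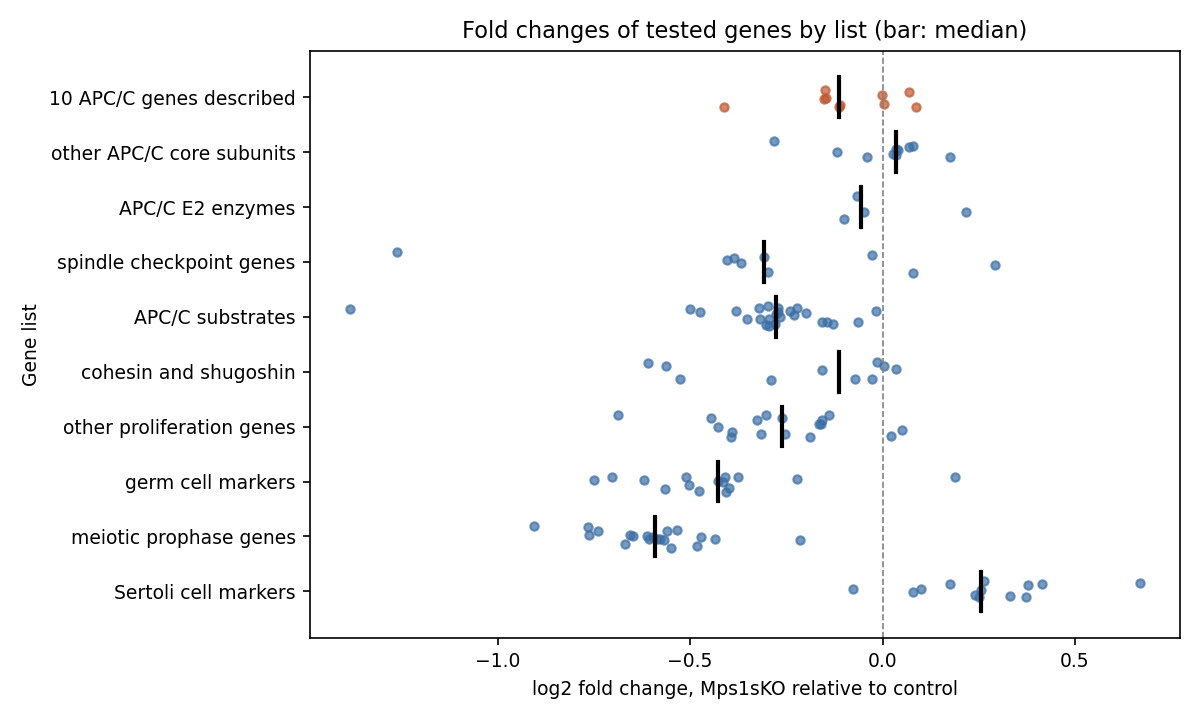
Each point is the log2 fold change of a tested gene (x axis, Mps1sKO relative to control), each row is a gene list and each black bar its median. The medians run from −0.59 for meiotic prophase genes to 0.26 for Sertoli cell markers, and the medians of the 10 genes described (−0.11) and of the other core subunits (0.035) lie between.

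The summed levels of some cell type markers also differed between the genotypes. Of 15 germ cell markers, 12 had an unadjusted p below 0.05, all lower (5.37% of all loci). Their median log2 fold change was −0.43, and their summed level was 1827 to 2229 CPM in control and 1277 to 1670 CPM in Mps1sKO libraries. With adjusted p, 0 of the 15 passed in edgeR and limma-voom and 4 in DESeq2. Of 21 meiotic prophase genes 20 were tested, 17 had an unadjusted p below 0.05, all lower (5.37% of all loci), and the median was −0.59. An adjusted p below 0.05 was reached by 0 of these genes in edgeR and limma-voom and by 1 in DESeq2. Their summed level was 542 to 712 CPM in control and 374 to 440 CPM in Mps1sKO libraries. Sertoli cell markers had a median of 0.26 over 13 tested of 14. Of these, 4 had an unadjusted p below 0.05, all higher (3.92% of all loci), and 5 lay above without overlap (20.3% of all loci). Their summed level was 7501 to 7627 CPM in control and 8918 to 9153 CPM in Mps1sKO libraries. *Clu*, the largest part of that sum, had 2900 and 3586 CPM in controls against 4399 and 3319 CPM in Mps1sKO testes, with overlap. The germ cell median was −0.66 without Mps1sKO replicate 1 and −0.25 without Mps1sKO replicate 2. Without control replicate 2, the meiotic prophase median was −0.38 and the Sertoli median 0.15. *Rhox5*, a gene that Sertoli cells usually express, had 1 count in all 4 libraries together and was left out of the fit, and the reason for this low count was not examined. The part of cell composition in the *Cdc20* value was not tested.

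The medians of the remaining lists were −0.28 for 7 genes of differentiating spermatogonia, −0.17 for 14 of undifferentiated spermatogonia and 0.18 for 7 of Leydig cells. The differentiating median was −0.16 without Mps1sKO replicate 2 and −0.18 without control replicate 2. Without Mps1sKO replicate 1 the undifferentiated median was −0.32 and the Leydig median 0.046, and the undifferentiated median was −0.10 without control replicate 1 and −0.11 without Mps1sKO replicate 2. For 8 endothelial genes the median was 0.081, for 5 tested red blood cell genes 0.077, for 8 macrophage genes −0.076 and for 7 of peritubular cells −0.083. Without Mps1sKO replicate 2 the macrophage median was 0.075 and the red blood cell median −0.11, both with the sign turned. Without Mps1sKO replicate 1 the endothelial median was 0.14, the macrophage median −0.13 and the red blood cell median 0.12, which was also 0.12 without control replicate 1 and 0.031 without control replicate 2. In the differentiating list 4 genes were lower and 1 higher at an unadjusted p below 0.05 (edgeR), against 5.37% and 3.92% of all loci. In the undifferentiated list 3 were lower, and in the Leydig list 1 was higher. In the other 4 lists 0 passed with edgeR, DESeq2 or limma-voom.

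Ratios within a library compare genes that share its depth. Their levels depend on the gene length used, as the order of levels does. The length cancels in their log2 differences between genotypes. Per length, *Cdc20* exceeded *Fzr1* by 2.55-fold and 3.73-fold in the control libraries and by 2.30-fold and 2.27-fold in the Mps1sKO libraries. The Mps1sKO ratios were both lower, but the difference of −0.43 on the log2 scale was −0.15 without control replicate 2, the library in which *Fzr1* was lowest, and −0.70 without control replicate 1. *Cdc20* was also set against the geometric mean of the 4 core subunits, a ratio added after the values were seen. This ratio stood at 1.76 and 1.99 in controls against 1.32 and 1.54 in Mps1sKO testes. That log2 difference was −0.39, from −0.50 to −0.28 when 1 library was dropped. The ratio of securin to separase was 1.77 and 1.91 in controls against 1.78 and 2.02 in Mps1sKO testes, with overlapping groups. *Fbxo5* to *Fzr1* was 0.863 and 1.1596 in control and 0.881 and 0.897 in Mps1sKO libraries, and *Fbxo43* to *Fbxo5* was between 0.0241 and 0.0402 in all of them. The log2 differences of these 3 ratios, 0.044, −0.17 and 0.16, each changed sign when 1 library was left out. A two-sided exact permutation test of 2 against 2 libraries cannot give a p below 0.333, which both *Cdc20* ratios reached (0.833 after adjustment over 5 ratios).

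**Figure D5:**
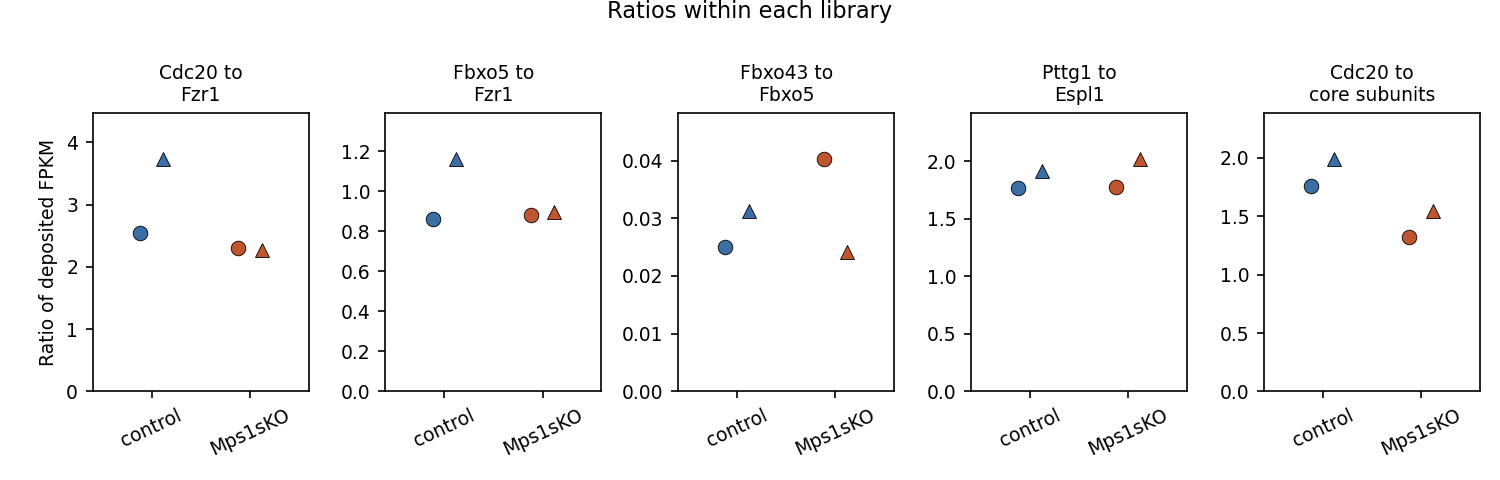
Ratios of deposited FPKM (y axis, starting at 0) are plotted for each library, with circles for replicate 1 and triangles for replicate 2. The ratio of *Cdc20* to the geometric mean of the core subunits is 1.32 to 1.54 in Mps1sKO and 1.76 to 1.99 in control libraries. That of *Pttg1* to *Espl1* overlaps between the genotypes.

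Some of these genes have copies or neighbours that could share reads. *Gm7856*, a processed pseudogene 93.7% identical to *Cdc20* over 1512 bases, had 12 and 11 counts in controls against 6 and 5 in Mps1sKO testes, against at least 1294 for *Cdc20*. A transcript of *Glcci1* holds 1759 bases that are 91.2% identical to *Fbxo5*, and *Glcci1* had between 290 and 327 counts in every library. The *Fbxo43* transcript has a stretch of at least 100 bases in common with transcripts of at least 411 other genes at 90% identity or more, so its low counts are uncertain. The search kept a limited number of matches, so this number is a lower bound. *Cdc20* and *Elovl1* overlap on opposite strands over 53 exonic bases, and *Fzr1* and *Mfsd12* over 4, and the strandedness of the counting is not given in the sources used here.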

How the data were processed

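Total RNA of whole testes was made into NEBNext Ultra libraries and sequenced in pairs of reads on a NovaSeq instrument. The submitters' processing notes name HISAT2 2.0.5, featureCounts, DESeq2 1.16.1 and mm10. The authors deposited raw counts per locus and FPKM values, which divide by gene length and by a library size. The strandedness is not given in the sources used here. All 55536 annotated loci had the coordinates of GENCODE M21, and the other 284 loci, none overlapping the genes described, took 0.225% to 0.262% of counts.

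Groups follow the genotype that the labels give. Counts were tested with edgeR 4.0.16 (R 4.3.3) using filterByExpr, TMM factors, estimateDisp and a two-sided quasi-likelihood F test between genotypes in all 4 libraries. Confidence intervals are 95%. Alternatives were DESeq2 1.42.0, edgeR with its size factors or with library sizes alone, limma-voom (limma 3.58.1), a minimum of 10 counts in each library, no filter, annotated genes only, the replicate number as a block, and each library left out. Levels between genes and ratios used the FPKM. Copies were sought with BLAST 2.17.0 among GENCODE M21 transcripts (at least 300 bases and 90% identity), and promoters came from RefSeq. Scripts were tested on simulated data with 2 libraries per group and few changed loci. There, 16.9% of loci with a true log2 size of 0.5 had an adjusted p below 0.05 (edgeR). Of those with a size of 1, 55.6% did.

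Every one of the 10 genes is named, and of other lists at most the 4 genes with the smallest unadjusted p. Exceptions are *Skp2*, *Rhox5*, *Clu*, *Rad21*, *Rec8*, *Nek2*, *Ube2c* and *Ube2s*, which were named after their values were seen. The genes and lists were chosen with earlier results of these data known. Depth was 23311689 to 28607746 counts. Where 0 counts were seen the limit is 3 counts (0.105 to 0.129 CPM), for counting error only. Labels do not state a batch or whether replicates were separate animals beyond calling them biological replicates.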

Additional observations from a re-analysis of the deposited data

How the results depend on the processing

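Of 130 member values under 13 alternatives, 118 kept their direction and their side of an adjusted p of 0.05. *Cdc20* passed it without the filter on low counts and with a crossed block, so that 1 of the 10 genes was then called lower instead of 0. Calls over all loci also rose, from 6 lower and 0 higher of 20561 in the main fit. They were 251 lower and 139 higher of 35262 without the filter, and 304 and 246 of 20561 with the crossed block. What the replicate numbers mark is not given in the sources used here, and same-numbered libraries deviated with a correlation of −0.19. With the replicate number as a block, 0 genes of the 10 were called, and the adjusted p of *Ttk* was 0.224 at a log2 fold change of −1.26. With the pairing crossed, chosen after seeing the data, 1 of the 10 genes had an adjusted p and 2 an unadjusted p below 0.05. Without each library in turn, 0 to 0 genes passed the adjusted and 1 to 2 the unadjusted threshold (2 without Mps1sKO replicate 1), and the median of the 10 lay between −0.14 and −0.083. *Fzr1*, near 0, had log2 fold changes of −0.017 with library size only, −0.0013 with at least 10 counts in every library, and from −0.19 (without control replicate 2) to 0.23 without each library. *Fbxo43* had 0.010 with DESeq2, 0.0049 with its size factors, 0.0036 with the crossed block and −0.24 to 0.22 (without Mps1sKO replicate 2) without each library, and *Cdc27* had −0.012 (without Mps1sKO replicate 1) to 0.15. The adjusted p of *Ttk* exceeded 0.05 with the DESeq2 size factors (log2 fold change −1.26), with at least 10 counts (−1.27), with limma-voom (−1.26) and with annotated genes only (−1.26). Leaving out libraries moved the median of the other core subunits from −0.025 to 0.060 and that of cohesin genes from −0.28 to −0.030. The rank of 3 genes differed in Mps1sKO libraries and of 6 with the length of the principal transcript. Without each library the log2 difference of *Cdc20* to *Fzr1* ran from −0.70 to −0.15 and that of *Fbxo43* to *Fbxo5* from −0.21 (without Mps1sKO replicate 1) to 0.52. With 2 libraries in each group, leaving out 1 cannot move a difference of means, such as a ratio difference, beyond the SD between replicates. Those moves therefore say nothing about stability. Medians are not bound in this way. Of 208 list medians under the alternatives, 12 moved by more than that SD. The median of the 10 did so without Mps1sKO replicate 1 (SD 0.025). The cause of these changes was not tested.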

Other observations

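Beyond the 10 genes, the promoter motifs shown for *Cdc20* were counted over all tested genes with a RefSeq window. The median log2 fold change was 0.0037 for 760 genes with both a CHR and a CCAAT box, −0.0071 for 1089 with a CHR only, −0.00072 for 4493 with a box only and 0.0028 for 6873 with neither. An unadjusted p below 0.05 in the lower direction was reached by 7.89% of the genes with both motifs and by 5.28% of those with neither. These shares are a description of the libraries, and no test was made of the difference.

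Among the APC/C substrates, *Nek2*, a centrosome kinase that was named after its values were seen, had the largest difference. It had 5.09 and 2.12 CPM in controls against 1.68 and 1.08 CPM in Mps1sKO testes. The log2 fold change was −1.38 with a standard error of 0.438 (adjusted p = 0.497, edgeR). Control replicate 1 stood apart from the other 3 libraries.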
